A study of Homo sapiens with 6 samples.

Results

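The 10 genes described here encode AP-1 and EGR transcription factors: the FOS family (FOS, FOSB, FOSL1 and FOSL2), the JUN family (JUN, JUNB and JUND) and the EGR family (EGR1, EGR2 and EGR3). They were chosen by symbol from the 60649 genes of the count table, with earlier results of these data known. All 10 passed the filter on low counts. The cells were 786-O, an established line from a human clear cell renal carcinoma that lacks working VHL, grown with no further treatment. Per the labels, 2 libraries carried the hairpin shRNA1 and 2 carried shRNA2, both against the long non-coding RNA LINC02068, and 2 carried shControl, a control hairpin, so that every library came from cells with a hairpin. RNA was sequenced to compare cells with lowered LINC02068 with the control. The labels do not say whether replicates were separate cultures, and the spread behind the p-values could then be technical. Neither hairpin sequences nor the time after delivery are stated there.

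AP-1 is a dimer of basic leucine zipper proteins that binds DNA at short palindromes. FOS proteins need a JUN partner, whereas JUN proteins can also pair with one another, and which members are present shapes the genes that are bound. EGR proteins bind GC-rich sites through zinc fingers. FOS, FOSB, JUNB and EGR1 are classical immediate early genes, switched on within minutes of a growth signal through MAP kinases and the SRF and CREB families, while FOSL1 and FOSL2 usually come later, are themselves AP-1 targets, and FOSL1 is often high in invasive carcinoma cells.

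With either hairpin FOSL1, FOSL2, JUN and JUND fell, and FOSL1 fell furthest, by 2.57-fold in the mean of both hairpins. EGR3 also fell with each hairpin, and EGR2 fell with shRNA1 and in the mean of both, but both were rare transcripts. FOS, FOSB and EGR1, the most abundant members by counts, were not called different with TMM scaling but were called lower with total counts, close to the median of all genes. JUNB lay lower in every hairpin library without passing the test, a call that turned on the setting: it passed in 7 of 14 alternatives for the mean of both.

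The promoters of 8 members, all but FOSL1 and EGR3, were in a RefSeq table (GRCh38.p14). The 250 bases before each start were searched on both strands for 5 motifs. The sequences below are shown because FOS, FOSB and EGR1 were the members that were not called and whose groups overlapped. JUND, which fell, is shown as well, with CRE cores and 8-base sites that partly overlap. Capitals mark a match. They are a CRE core (TGACGT, or ACGTCA on the other strand), an 8-base AP-1 or CRE site (TGANNTCA), an EGR site (GCGNGGGCG) or a CArG box, the element that SRF binds. The windows stop before the first annotated transcript base.
FOS, chr14:75278578-75278773, plus strand: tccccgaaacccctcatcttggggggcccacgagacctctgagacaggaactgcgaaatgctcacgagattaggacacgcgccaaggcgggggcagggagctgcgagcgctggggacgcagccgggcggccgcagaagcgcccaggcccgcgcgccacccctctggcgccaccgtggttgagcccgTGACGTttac
FOSB, chr19:45467746-45467994, plus strand: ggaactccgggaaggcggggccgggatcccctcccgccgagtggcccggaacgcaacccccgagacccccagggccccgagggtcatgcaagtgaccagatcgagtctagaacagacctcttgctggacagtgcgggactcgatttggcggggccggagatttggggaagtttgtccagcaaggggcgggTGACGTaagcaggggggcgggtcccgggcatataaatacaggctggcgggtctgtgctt
EGR1, chr5:138465229-138465478, plus strand: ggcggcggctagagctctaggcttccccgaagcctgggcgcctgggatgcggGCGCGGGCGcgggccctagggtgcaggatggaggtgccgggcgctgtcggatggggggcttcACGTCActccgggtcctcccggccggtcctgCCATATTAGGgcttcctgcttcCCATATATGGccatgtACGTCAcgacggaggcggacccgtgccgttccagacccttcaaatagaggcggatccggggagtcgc
JUND, chr19:18281623-18281872, minus strand: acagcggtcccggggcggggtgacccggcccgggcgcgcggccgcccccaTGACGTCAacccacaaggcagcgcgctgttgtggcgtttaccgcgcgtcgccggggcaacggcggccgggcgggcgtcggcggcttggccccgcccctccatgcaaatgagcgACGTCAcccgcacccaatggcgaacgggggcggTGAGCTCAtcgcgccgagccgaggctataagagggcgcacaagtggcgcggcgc

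A CRE core, which CREB and ATF proteins bind, began 64 bases before the RefSeq start of FOS, 60 before that of FOSB and 66 before that of FOSL2, so the match was shared by members that fell and members that were not called. EGR1 held 2 CArG boxes, at 105 and 83 bases, as well as CRE cores at 136 and 67 and an EGR site at 198. JUND held TGACGTCA at 200 bases, in which the CRE core is read on both strands and the 8-base site overlaps it, another CRE core at 87 and TGAGCTCA at 54. JUN held TGACATCA at 67 bases, and JUNB and EGR2 held none of the 5 motifs in this window. Of 35116 promoters in the table, 7.10% held the CRE core, 10.1% the 8-base site, 8.41% the EGR site and 1.16% a CArG box. The 7-base AP-1 site (TGANTCA) was in 6.57%, and none of the 8 members searched held it. FOSL1 and EGR3 were not searched, and sites further upstream than 250 bases were not searched in any member. A motif not found here may therefore lie outside the window. The matches are descriptions of sequence and were not tested for binding.

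Total counts per library ran from 15376448 to 37311846, so 1 count-per-million (CPM, scaled by TMM) stood for 14.9 to 36.0 counts. LINC02068 counts were 20 and 32 for shControl, 9 and 2 for shRNA1, and 17 and 10 for shRNA2. It fell by 1.46 ± 0.59 (SE) on the log2 scale in the mean of both hairpins (edgeR adjusted p = 0.0447), and neither hairpin alone passed the test (adjusted p = 0.069 and 0.148). Of 9 renal carcinoma markers, all were detected. In the mean of both hairpins 7 rose, among them KRT8 and CDH6, where 28.6% of all tested genes were called higher. Under total counts 6 rose, where 3398 of 16039 tested genes did, and against a fold of 1.2 4 rose, where 3096 did. The summed level of the 9 was 6867 to 6869 CPM in control libraries, 8709 to 8756 with shRNA1 and 8717 to 8843 with shRNA2. VIM made up most of it (5147 CPM in the control). Of 11 markers of other cell types, 7 had 0 counts in every library, among them PTPRC of leukocytes, CDH5 of endothelium, ALB of hepatocytes and UMOD of the thick ascending limb. The summed level of the 11 was 17.3 to 19.2 CPM in control libraries, 27.5 to 31.9 with shRNA1 and 25.0 to 25.4 with shRNA2, mostly ACTA2, which rose (log2 change 0.67 ± 0.11). COL1A1 (0.36 ± 0.20) and CD14 (−0.81 ± 0.55) were not called in the mean of both hairpins. CD14, a rare transcript, was called lower with shRNA1 alone. It stood at 0.74 CPM in the control, 0.21 with shRNA1 and 0.85 with shRNA2. The part of these shifts in the results below was not tested. In bulk RNA, fewer cells with a transcript and less of it per cell cannot be told apart.

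**Figure D1:**
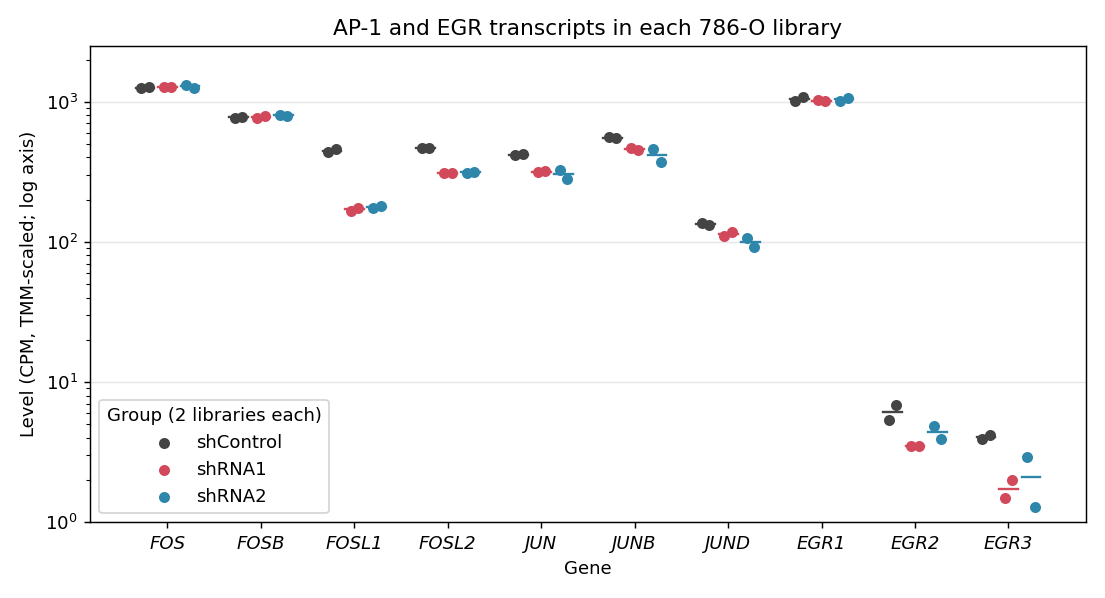
Level of each member in each library, in TMM-scaled CPM on a log axis, with 2 points and a bar at the mean for each group. FOS, FOSB and EGR1 points lie together in all groups, while FOSL1 falls from 435 and 459.5 CPM in the control to between 165.8 and 180.7.

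FOS (chr14:75278774-75282230, plus strand; all gene positions are from GENCODE 29 on GRCh38) encodes the founding, short-lived member of its family. Its level was 1258 and 1264 CPM in the control libraries, 1264 and 1270 for shRNA1 and 1319 and 1261 for shRNA2. All 6 libraries lay close together and the groups overlapped. The log2 change for the mean of both hairpins was 0.020 ± 0.026 (SE; 95% interval −0.04 to 0.08; adjusted p = 0.543).

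FOSB (chr19:45467995-45475179, plus strand) encodes a related partner of JUN proteins that also has a truncated isoform. Its level was 765.1 and 781.8 CPM in the control, 763.5 and 793.0 with shRNA1 and 810.1 and 787.0 with shRNA2. The hairpin libraries reached from just below to above the control libraries, and the log2 change for the mean of both was 0.028 ± 0.028 (95% interval −0.03 to 0.09; adjusted p = 0.427). For FOS and FOSB these intervals exclude a fall of the size seen in FOSL2 or FOSL1.

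FOSL1 (chr11:65892049-65900573, minus strand) encodes FRA-1, which lacks the transactivation domain of FOS. It stood at 435.0 and 459.5 CPM in the control libraries, 165.8 and 175.2 for shRNA1 and 174.4 and 180.7 for shRNA2. Every hairpin library was far below both control libraries, and the 4 hairpin libraries differed little among themselves. The log2 change was −1.39 ± 0.043 with shRNA1 (adjusted p = 9.70e-13), −1.33 ± 0.042 with shRNA2 (adjusted p = 1.23e-12) and −1.36 ± 0.035 for the mean of both (adjusted p = 7.88e-14). Both comparisons use the same control libraries. Among all tested genes 8.09% were called lower by more than 1 log2 unit in the mean of both hairpins.

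FOSL2 (chr2:28392448-28417312, plus strand) encodes FRA-2, the closest relative of FRA-1. Its level was 468.7 and 469.2 CPM in the control, 308.1 and 309.0 with shRNA1 and 312.6 and 316.4 with shRNA2. The groups did not overlap, and the spread within each was small beside the gap. FOSL2 fell by 0.60 ± 0.033 on the log2 scale with shRNA1 (adjusted p = 6.17e-10) and by 0.58 ± 0.033 with shRNA2 (adjusted p = 8.73e-10), or 1.51-fold in the mean of both. The FOS family thus held a pair of members that were not called and a pair that fell.

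JUN (chr1:58780788-58784327, minus strand) encodes the main partner of FOS proteins and the target of the JNK kinases. It was at 413.5 and 421.1 CPM in the control, 314.9 and 318.4 with shRNA1 and 324.2 and 282.5 with shRNA2. All 4 hairpin libraries were below both control libraries, with shRNA2 replicate 2 lowest. JUN fell by 0.40 ± 0.055 on the log2 scale with shRNA1 (adjusted p = 0.000137) and by 0.46 ± 0.055 with shRNA2 (adjusted p = 4.33e-05).

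JUNB (chr19:12791496-12793315, plus strand) encodes a weaker activator that can oppose JUN. Its level was 559.6 and 547.4 CPM in the control, 469.0 and 449.3 with shRNA1 and 459.7 and 371.1 with shRNA2. The hairpin libraries were again all below the control, but the shRNA2 libraries differed from each other by about as much as the other hairpin libraries differed from the control. The log2 change was −0.27 ± 0.12 with shRNA1 (adjusted p = 0.152), −0.41 ± 0.12 with shRNA2 (adjusted p = 0.0575) and −0.34 ± 0.10 for the mean of both (95% interval −0.64 to −0.04; adjusted p = 0.0582), and none passed the threshold. The mean of both did pass without shRNA2 replicate 1 (−0.43, adjusted p = 5.11e-09) and without shRNA2 replicate 2 (−0.27, adjusted p = 1.39e-06), and with DESeq2 (adjusted p = 0.00813). For the single hairpins JUNB passed in 5 of 15 alternatives with shRNA1 and in 7 of 15 with shRNA2, where leaving out 1 library moved its change between −0.27 and −0.59. JUNB shares 259 exon bases with HOOK2 on the opposite strand, and the strand setting of the counting is not given in the sources used here. HOOK2 had 3646 counts over the 6 libraries against 65649 for JUNB.

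JUND (chr19:18279760-18281622, minus strand) encodes the JUN protein present most widely in resting cells. Its level was 135.4 and 132.9 CPM in the control, 109.3 and 118.1 with shRNA1 and 106.2 and 92.0 with shRNA2. The groups did not overlap. JUND fell by 0.24 ± 0.065 on the log2 scale with shRNA1 (adjusted p = 0.0076) and by 0.43 ± 0.065 with shRNA2 (adjusted p = 6.50e-05). The shRNA1 call was lost without shRNA1 replicate 1 (−0.16, adjusted p = 0.128), without shControl replicate 1 (adjusted p = 0.0502) and with trends on exon length and GC content removed (−0.12, adjusted p = 0.0657), and in a test against a fold of 1.2 (adjusted p = 0.569). The length and GC setting also moved the mean of both from −0.34 to −0.17, which was still called (adjusted p = 0.00347).

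EGR1 (chr5:138465490-138469315, plus strand) encodes the most widely induced EGR factor. It stood at 1014 and 1076 CPM in the control, 1028 and 1007 with shRNA1 and 1005 and 1070 with shRNA2. Each group spanned much of the same range. The log2 change for the mean of both was −0.0245 ± 0.032 (95% interval −0.09 to 0.04; adjusted p = 0.542).

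EGR2 (chr10:62811996-62919900, minus strand) encodes a relative best known in myelinating Schwann cells and lymphocytes. It had 100 and 191 counts in the control libraries, 52 and 67 for shRNA1 and 176 and 82 for shRNA2, or 5.36 and 6.81, 3.49 and 3.50, and 4.89 and 3.92 CPM. The shRNA1 libraries were lowest and shRNA2 replicate 1 lay near the lower control library. EGR2 fell by 0.80 ± 0.24 on the log2 scale with shRNA1 (adjusted p = 0.00952) and by 0.63 ± 0.19 in the mean of both (adjusted p = 0.0113), while the change with shRNA2 was −0.46 ± 0.22 (adjusted p = 0.0977). Without shControl replicate 2 neither call held (−0.62 with shRNA1, adjusted p = 0.116, and −0.45 in the mean, adjusted p = 0.194).

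EGR3 (chr8:22687659-22693302, minus strand) encodes a relative known from activated T cells and muscle spindles. It had 73 and 117 counts in the control libraries, 22 and 38 for shRNA1 and 105 and 27 for shRNA2, or 3.92 and 4.17, 1.48 and 1.99, and 2.92 and 1.29 CPM. All hairpin libraries were below the control, and the shRNA2 libraries differed more than 2-fold from each other. EGR3 fell by 1.21 ± 0.37 on the log2 scale with shRNA1 (adjusted p = 0.0117), by 0.91 ± 0.35 with shRNA2 (adjusted p = 0.0386) and by 1.06 ± 0.30 in the mean of both (adjusted p = 0.00655). The call for the mean was lost without shControl replicate 2 (−1.02, adjusted p = 0.0635) and the shRNA1 call without shRNA1 replicate 1 (−1.01, adjusted p = 0.0978) or shControl replicate 2 (−1.17, adjusted p = 0.0666). The shRNA2 call was lost without either shRNA1 library (adjusted p = 0.0516 and 0.0529), without shRNA2 replicate 2 (−0.47, adjusted p = 0.294) and without either control library (adjusted p = 0.101 and 0.155). It was also lost with DESeq2 (adjusted p = 0.0674) and against a fold of 1.2 (adjusted p = 0.0737), and without shRNA2 replicate 1 the change was −1.65. EGR3 shares 164 exon bases with AC055854.1 on the opposite strand, which had 17 counts against 382 for EGR3.

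**Figure D2:**
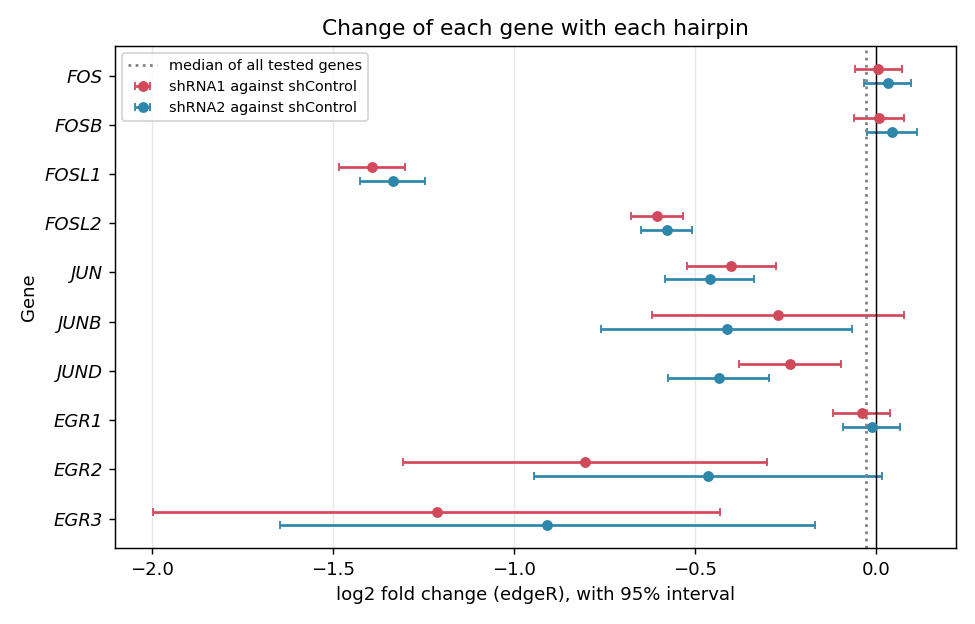
Log2 fold change of each member with shRNA1 and with shRNA2 against shControl from edgeR, with 95% intervals, and the median of all tested genes as a dotted line. FOS, FOSB and EGR1 sit near 0 (at −0.14, −0.13 and −0.18 in the mean of both under total counts), FOSL1 lies near −1.4 with narrow intervals, and EGR2 and EGR3 have the widest intervals.

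With shRNA1, 6 of the 10 members were called lower and 0 higher, in a comparison in which 52.4% of all tested genes were called 25.6% were called lower and 26.8% higher. With shRNA2, 5 were lower and 0 higher, against 52.8% called, 26.1% lower and 26.7% higher. In the mean of both hairpins 6 were lower and 0 higher, against 57.5% called, 28.9% lower and 28.6% higher. Without shControl replicate 2 the mean of both gave 4 members, as EGR2 and EGR3 were lost. The members called lower with both hairpins separately were FOSL1, FOSL2, JUN, JUND and EGR3, where 22.4% of all tested genes were called lower with both. In 7 members all 4 hairpin libraries lay below both control libraries, which held for 34.2% of tested genes. The median change of the members was −0.38 in the mean of both hairpins, against −0.03 for all tested genes. The median and these counts describe the 10 genes and were not tested as a set.

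Between the hairpins 0 members were called, where 0.0312% of all tested genes (5 genes) were. Unadjusted p-values were under 0.05 for 1 member with edgeR, JUND, and DESeq2 called 0 members. JUND was 0.20 ± 0.066 log2 units higher with shRNA1 than with shRNA2 (unadjusted p = 0.0103, adjusted p = 0.905). FOSL1 differed by −0.06 between hairpins (95% interval −0.15 to 0.03) and FOSL2 by −0.03 (interval −0.10 to 0.04), so differences beyond these bounds lie outside the intervals. For JUNB the interval ran from −0.21 to 0.49, and without shRNA2 replicate 1 the difference was called (0.31, adjusted p = 0.00232). The library shRNA2 replicate 2 held the lowest level of the 6 for JUN, JUNB, JUND and EGR3.

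The scaling of libraries decides where 0 lies for the members that were not called. TMM factors were 1.08 and 1.07 in the control libraries and 0.96 to 0.97 in the hairpin libraries. With total counts in place of TMM, all 10 members were called lower in the mean of both hairpins, where 6028 of 16039 tested genes were lower and 3398 higher. FOS stood at −0.14, FOSB at −0.13 and EGR1 at −0.18, while the median of all tested genes moved from −0.03 to −0.18. Relative to that median FOS stood at 0.05, FOSB at 0.05 and EGR1 at 0.001 under either scaling, and FOSL1 at −1.34. Ratios within a library do not depend on the scaling. For every 100 counts of FOS there were 34.6 and 36.4 counts of FOSL1 in the control libraries and 13.1 to 14.3 in the hairpin libraries. FOSL2 had 37.3 and 37.1 against 23.7 to 25.1, and JUN had 32.9 and 33.3 against 22.4 to 25.1. FOSB stayed between 60.4 and 62.5 in all 6 libraries. These ratios show that FOSL1, FOSL2 and JUN changed unequally to FOS and FOSB within each library.

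Per kilobase of exon the order of levels in the control was FOS (389 ± 1.24 CPM per kb, SD, n = 2), EGR1 (333 ± 13.8), JUNB (304 ± 4.71), FOSL1 (237 ± 9.20), FOSB (139 ± 2.13), JUN (118 ± 1.5), JUND (72.0 ± 0.97), FOSL2 (65.5 ± 0.043), EGR2 (1.65 ± 0.28) and EGR3 (0.83 ± 0.037). No neighbours in this order overlapped between control libraries. FOS ranked 56th of 24997 genes with a level, EGR1 70th and JUNB 80th, so 3 of the factors were among the most abundant transcripts of the line. FOSL1 moved from rank 112 in the control to 458 with shRNA1 and 439 with shRNA2. With shRNA1 its level per kilobase (90.4 ± 3.53) overlapped that of JUN (89.5 ± 0.70), which it had exceeded in both control libraries. With shRNA2 FOSL1 stayed above JUN, at 92.4 and 95.7 against 91.6 and 79.8 CPM per kb. The lengths are those of all annotated exons together, so they run long for genes with several isoforms.

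Summed per kilobase, the FOS family stood at 831 ± 12.6 CPM per kb in the control (SD, n = 2), 665 ± 8.63 with shRNA1 and 680 ± 13.0 with shRNA2. FOSL1 made up 28% and 29% of that sum in the control libraries and 13.3% to 14.3% in the hairpin libraries. The share of FOS went from 47.3% and 46.5% to between 58.0% and 59.3%, although its own level was not called different. The JUN family sum was 494 ± 4.17 in the control, 403 ± 3.61 with shRNA1 and 367 ± 48.1 with shRNA2. Its make-up varied less: JUNB held 61.2% to 63.6% of it, JUN 22.0% to 24.2% and JUND 14.2% to 15.8% over all 6 libraries. The EGR sum, nearly all EGR1, was 335 ± 14.2 in the control, 326 ± 4.67 with shRNA1 and 332 ± 14.3 with shRNA2. These sums are descriptions without a test.

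**Figure D3:**
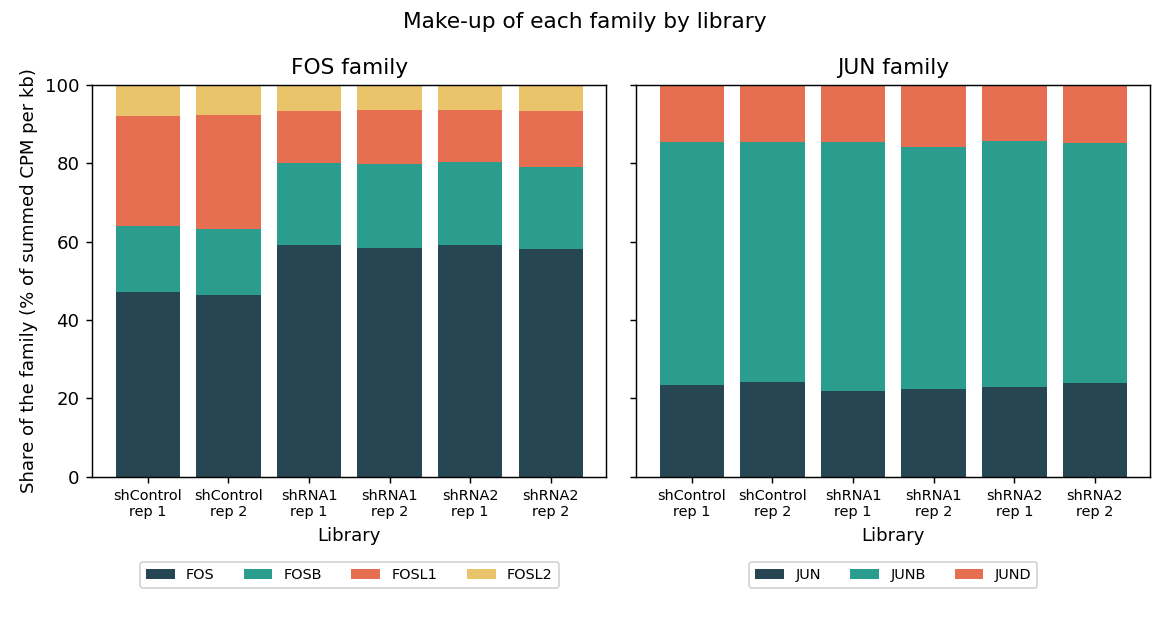
Share of each member in the summed level of the FOS family (left) and the JUN family (right), in percent of CPM per kilobase, as 1 stacked bar for each library. The FOSL1 band narrows from 28% and 29% to at most 14.3%, while the JUN family bands keep nearly the same widths.

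The counts of each linked gene list below are for the mean of both hairpins. They stand beside the 28.6% of all tested genes called higher and the 28.9% called lower. Those under total counts stand beside 3398 of 16039 tested genes called higher and 6028 called lower. The lists were chosen with earlier results of these data known. Of 13 other basic leucine zipper genes 9 were tested, and 8 fell (against 28.9% of all tested genes) and 0 rose, with a median of −0.88 (−1.03 under total counts). ATF3, a stress-induced partner of JUN, went from 249.4 ± 12.6 CPM (SD, n = 2) in the control to 107 ± 2.30 for shRNA1 and 115 ± 0.71 for shRNA2 (log2 change −1.18 ± 0.039, adjusted p = 1.27e-12). MAFF, a small MAF protein, fell by 1.86 ± 0.080 and ATF2, a CRE-binding partner of JUN, by 0.88 ± 0.057. Of the 4 EGR relatives and corepressors 3 were tested. The corepressor NAB1 (−0.44 ± 0.10) and WT1, a zinc finger relative (−0.64 ± 0.18), fell. The NAB1 call was lost without shControl replicate 1 (−0.31, adjusted p = 0.0653) and the WT1 call without shControl replicate 2 (−0.65, adjusted p = 0.0518). NAB2, the other corepressor and itself an EGR target, rose by 0.29 ± 0.12 (adjusted p = 0.0427), but neither hairpin alone was called (adjusted p = 0.083 and 0.0741). The NAB2 call was lost under total counts (adjusted p = 0.334), against a fold of 1.2 (0.323), without replicate 1 of shRNA1 (0.117) or of shRNA2 (0.122), and without replicate 1 (0.127) or replicate 2 (0.221) of shControl. The list median was −0.44.

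With TMM scaling, some counts in the 3 lists of upstream genes were close to the share of all tested genes called (28.6% higher, 28.9% lower). Others rested on few genes. None of the counts, under either scaling, is read as a result about these lists. Under total counts 3398 of 16039 tested genes were called higher and 6028 lower. Of 6 genes for SRF and its cofactors 2 fell, ELK3 (−0.50 ± 0.051) and ELK4 (−0.24 ± 0.068), which bind CArG elements with SRF, and 0 rose. ELK4 was not called with shRNA1 (adjusted p = 0.0751), and its call in the mean was lost without shControl replicate 1 (−0.19, adjusted p = 0.0982), against a fold of 1.2 (adjusted p = 0.545) and with length and GC trends removed (−0.095, adjusted p = 0.249). MRTFB, an actin-regulated cofactor, was not called (0.13 ± 0.064, adjusted p = 0.0869), but was called without shRNA1 replicate 1 (0.17, adjusted p = 0.041) and with length and GC trends removed (0.26, adjusted p = 0.00228), and lay at −0.02 under total counts. The list median was 0.09, and −0.07 under total counts. Of 17 MAP kinases and MAP kinase kinases 5 rose and 6 fell (median −0.09), and under total counts 5 rose and 10 fell (median −0.24). MAP2K2, which encodes MEK2, rose from 153 ± 1.63 to 229 ± 0.50 and 227 ± 12.0 CPM, and MAPK3, which encodes ERK1, rose from 74.1 ± 3.82 to 113 ± 6.51 and 114 ± 5.46 CPM. MAP2K3, a kinase of p38, rose by 0.66 ± 0.070, while MAP2K4, a kinase of JNK, fell by 0.92 ± 0.080. Of 12 genes that control JUN and FOS proteins 5 rose and 3 fell (median 0.12), and under total counts 3 rose and 4 fell (median −0.03). Against a fold of 1.2 there were 2 of each. ITCH, a ligase that marks JUN and JUNB for destruction, fell by 0.78 ± 0.043 and the kinase gene RPS6KA2 by 0.56 ± 0.056, while RPS6KA1 rose by 0.39 ± 0.056. Transcript levels say nothing here of kinase activity or of AP-1 protein.

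Of 20 other immediate early genes 19 were tested, with 9 lower, 4 higher and a median of −0.22, where 28.9% of all tested genes were called lower and 28.6% higher. Under total counts 11 were lower and 2 higher (median −0.37), beside 6028 lower and 3398 higher of 16039 tested genes. The 4 higher became 1 without shControl replicate 1 and 2 with no filter or against a fold of 1.2. KLF4 stood at 123 ± 1.25 CPM in the control, 24.5 ± 2.90 for shRNA1 and 20.1 ± 0.018 for shRNA2 (log2 change −2.47 ± 0.064, adjusted p = 9.13e-14). KLF6 fell by 0.85 ± 0.031 and PPP1R15A, which encodes the stress phosphatase subunit GADD34, by 0.84 ± 0.032. BTG2, an antiproliferative gene, rose from 1.17 ± 0.36 CPM to 2.83 ± 0.29 and 2.67 ± 0.12, a call lost without shControl replicate 1 (adjusted p = 0.0521). Immediate early genes thus varied among themselves, as the AP-1 and EGR members did.

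Genes named in textbooks as AP-1 targets, a list chosen with earlier results of these data known, were more often lower than higher. Of 23 listed 20 were tested, and 14 fell, 5 rose and 1 was not called, with a median of −0.67 (−0.82 under total counts), where 28.9% of all tested genes were called lower and 28.6% higher. In all 14 alternatives 14 were lower. The 5 higher became 2 without shControl replicate 1, 2 without shControl replicate 2, and 3 under total counts or against a fold of 1.2. CCND1, cyclin D1, went from 1465 ± 24.6 CPM (SD, n = 2) in the control to 535 ± 10.6 for shRNA1 and 536 ± 7.49 for shRNA2 (log2 change −1.45 ± 0.026), and EREG, an EGF receptor ligand, from 275 ± 6.13 to 87.1 ± 0.96 and 80.9 ± 2.34 (−1.71 ± 0.037). CCL2, a chemokine, went the other way from 0.23 ± 0.025 CPM to 1.09 ± 0.016 and 0.95 ± 0.28 (adjusted p = 0.00735), a call lost without shControl replicate 1 (adjusted p = 0.0586) or shControl replicate 2 (adjusted p = 0.0508). Of 14 EGR targets 13 were tested, with 7 lower, 3 higher and a median of −0.21, beside the same shares of all tested genes. Under total counts 9 were lower and 2 higher (median −0.37), beside 6028 lower and 3398 higher of 16039 tested genes. With either control library left out 2 were higher. GADD45A, a growth arrest gene, fell by 2.99 ± 0.068 and TNFRSF10B, a death receptor, by 1.12 ± 0.056, whereas ID3 rose by 2.16 ± 0.073 and THBS1 by 0.66 ± 0.024, with NAB2 the other gene that rose. Many of these genes have other regulators, and whether AP-1 or EGR factors bound them was not measured.

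**Figure D4:**
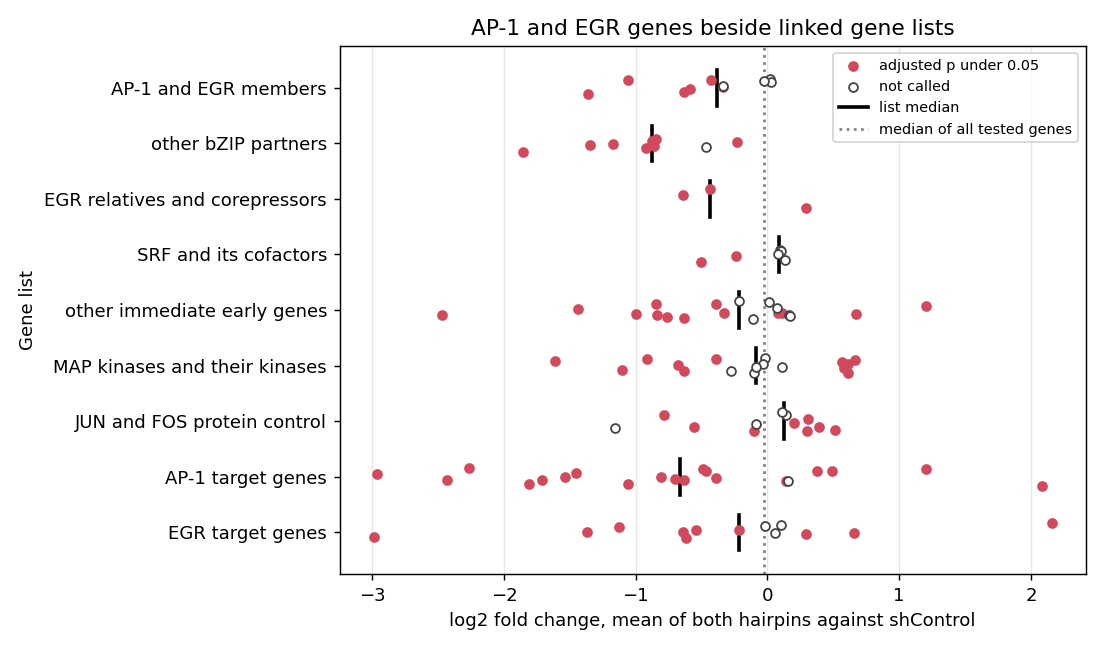
Log2 change in the mean of both hairpins against shControl for each tested gene of the members and 8 linked lists, with filled points for adjusted p under 0.05, a bar at each list median and a dotted line at the median of all tested genes. Basic leucine zipper partners and AP-1 targets have medians of −0.88 and −0.67 (−1.03 and −0.82 under total counts). SRF cofactors and MAP kinases lie at 0.09 and −0.09 (−0.07 and −0.24 under total counts).

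The tested genes whose profile over the 6 libraries was most like that of each member were named by the distance between centred log2 CPM values. All 10 members had a mean of at least 2 CPM, the minimum for a member to be given neighbours. FOSL1 was nearest to HK2, hexokinase 2 (distance 0.065), and NT5E, the ectonucleotidase CD73 (0.096). FOSL2 was nearest to SGPL1 (0.025) and RNF187 (0.038), and JUN to UBE2C (0.055) and KIF18A (0.056). The nearest to JUNB were USP37 and PLPP5, and to JUND RCBTB1 and NBPF15. FOS lay nearest to TRIM44 and CRYBG1, FOSB to WIZ and MORC2, and EGR1 to SOX4 and RAB11FIP5. Of these 6 genes the change in the mean of both hairpins was lowest in RAB11FIP5 (−0.054) and highest in MORC2 (0.052). EGR2 was nearest to CPA6 (0.197) and AUH (0.212), and EGR3 to RP11-61K9.3 (0.169) and ETV4 (0.368), all looser matches than those of the other 8 members. The distances are descriptions over 6 libraries from 3 groups.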

How the data were processed

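The authors deposited raw gene counts, as whole numbers, of 6 786-O libraries. Per the submitters' processing notes, FastQC 0.11.9, Trim Galore 0.6.7, HISAT2 2.2.1, StringTie 2.2.1 and hg38 were used; not given in the sources used here were the counting tool, annotation, strand setting and treatment of multi-mapping reads. Genes were filtered with filterByExpr (16039 tested), scaled by TMM and fitted with edgeR 4.0.16 (quasi-likelihood, robust, all 6 libraries, R 4.3.3, limma 3.58.1). A gene was called at a Benjamini-Hochberg adjusted p under 0.05 over all tested genes. The SE is the log2 change divided by the root of F. Levels are CPM, divided by GENCODE 29 exon length where stated (96.3% of IDs matched). FOSL1 and EGR3 had no entry in the RefSeq promoter table. The code was tested on simulated data for the mean of both hairpins over 16039 genes. Of 100 genes changed by 1 log2 unit 83% were called, and of 100 changed by −0.5 44% were, with 4 false calls. Only these genes were changed, whereas 57.5% of tested genes were called in the data. The rates therefore do not give the share of true changes detected here.

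The members, lists and tests were chosen with earlier results of these data known. Named were all members, LINC02068, up to 3 genes per list with the smallest p plus the called gene furthest the other way, and the 2 nearest profiles of each member. Some genes that this rule covers are not reported here. Alternatives were DESeq2 1.42.0, RLE factors, total counts, no filter or a stricter one (10 counts in 2 libraries, mean 1 CPM), a replicate block, a fit to the 2 groups of a comparison alone, glmTreat at a fold of 1.2 and each library left out. Removal of exon length and GC trends (mgcv 1.9.3; 15902 genes) was chosen after seeing the data.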

Additional observations from a re-analysis of the deposited data

How the results depend on the processing

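Of 590 values of single members over the alternatives, 516 kept their direction and their side of the threshold. In the same direction 17 lost their call and 24 gained one. The other 33 changed sign, chiefly FOS, FOSB and EGR1 near 0, and were counted only as such. They include FOS and FOSB under total counts, which were also called lower with each hairpin and in the mean. Under total counts 10 members were called with shRNA2 and 10 in the mean of both hairpins. Of 16039 tested genes 5535 were then called lower with shRNA2 and 6028 in the mean. Calls in the higher direction in the mean went from 49.7% to 36.0% of all calls. FOS and FOSB then stood at −0.1456 and −0.1432 with shRNA1, −0.1254 and −0.1125 with shRNA2 and −0.1355 and −0.1279 in the mean. With shRNA1 FOS and FOSB were −0.0034 and −0.0012 with DESeq2, −0.0202 and −0.0181 with no filter and −0.0135 and −0.0112 with the stricter filter, where FOS was −0.0009 in the mean. With length and GC trends removed FOS was −0.0012 with shRNA2, and FOS, FOSB and EGR1 differed between the hairpins by 0.0152, 0.0105 and 0.0015. The cause was not tested.

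With each library left out in turn, some changes crossed 0. With shRNA1, FOSB ranged from −0.0155 to 0.0555 and FOS ranged from −0.0056 to 0.0297. With shRNA2, EGR1 ranged from −0.0601 to 0.0275 and FOS ranged from −0.0084 to 0.0630. In the mean of both, FOS ranged from −0.0044 to 0.0404 and EGR1 ranged from −0.0746 to 0.0129. Between the hairpins, FOS ranged from −0.0624 to 0.0080 and EGR3 ranged from −0.7432 to 0.4331 and JUN ranged from −0.0373 to 0.1661 and JUNB ranged from −0.0056 to 0.3083 and EGR1 ranged from −0.0718 to 0.0141.

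Between the hairpins 5 genes were called. DESeq2 called 15, no filter 69 and a fit to only the groups compared 16, and leaving out 1 library called 12 to 31, with 0 to 1 members. Differences between replicates 1 and 2 were nearly uncorrelated between groups over all tested genes (correlations 0.0107, −0.029 and −0.00123). Count noise can hide a shared batch in such values, so they do not settle whether equal replicate numbers were paired. The replicate block called 9 genes between the hairpins and 6, 6 and 7 members with shRNA1, shRNA2 and their mean, where JUNB was called (−0.34, adjusted p = 0.0236). JUND in the mean was lost in the test against a fold of 1.2 (adjusted p = 0.0816). Counts of 22 to 191 limit EGR2 and EGR3.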
